A study of Mus musculus with 29 samples.

Results

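Saa3, Hp, A2m, Lcn2, C3 and Mmp13 were described in 29 mouse RNA sequencing libraries of nephron progenitor cells (NPCs), the Six2-expressing mesenchymal cells of the fetal kidney that give rise to nephrons. The 6 genes were chosen by their measured levels in the cultured libraries, so those levels are given as a description, without a test. All 6 were found by symbol among the 23918 usable symbols of the deposited table. The acute phase response is the change in plasma proteins that follows infection or injury, and its main source is the liver. Cytokines of the interleukin-6 family act through the shared receptor chain gp130 on the transcription factor STAT3, and interleukin-1 acts on NF-kB. Both routes act together with C/EBP factors on acute phase promoters. In the kidney, lipocalin 2 is known as a product of injured tubules.

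The cells came from mice with a C57BL/6 and 129 hybrid background that carried Six2-GCE, a green fluorescent protein, Cre and estrogen receptor fusion placed at the Six2 locus. This allele, strain and source tissue (kidney) were shared by all 29 libraries. Primary NPCs of 5 ages had 2 libraries each: E11.5 and E12.5, then E13.5, then E16.5 (days of embryonic development), and postnatal day P1. There were 2 libraries of Six2-negative cells of E12.5 kidneys. Each of these ages but E12.5 gave 1 cell line, grown as aggregates in NPSR medium. The 4 lines had 1 library apiece from passage 20 (P20) and from passage 80 (P80), 8 in all. In 9 further libraries, labelled with the age E13.5, 1 component had been left out of the medium. Heparin, a glycosaminoglycan that assists fibroblast growth factors, the ROCK inhibitor Y27632, the bone morphogenetic protein BMP7 and CHIR99021 (CHIR), an inhibitor of GSK3 that activates Wnt signalling, were each left out for 4 days and for 8 days. LIF, a cytokine of the interleukin-6 family, was left out for 8 days. Each withdrawal is 1 library. An undisturbed culture of the same RNA type was not analysed here, so heparin and Y27632 withdrawal of the same day served as comparators.

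In mm9 coordinates Lcn2 lies at chr2:32240153-32243317, A2m at chr6:121586191-121629255, Saa3 at chr7:53967368-53971046, Hp at chr8:112099030-112103072, Mmp13 at chr9:7272514-7283333 and C3 at chr17:57343397-57367559. A2m and Mmp13 are on the plus strand and the other 4 on the minus strand.

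Levels are reads per kilobase of transcript and per mapped read total (RPKM), a unit corrected for transcript length and depth. Depth, estimated from the spacing of low values, was 6.71 M to 33.1 M reads (median 16 M). At these depths and at full transcript length, an RPKM of 1 was estimated as 3.56 to 17.6 reads for Saa3, the shortest transcript at 531 bases. For C3, the longest at 5132 bases, the estimate was 34.4 to 170 reads. Low Saa3 values did not fall on whole reads by this count, so its reads may be fewer. The 10 NPC markers examined (Six2, Cited1, Eya1, Sall1, Osr1, Pax2, Wt1, Gdnf, Crym and Meox1) were all at an RPKM of at least 1 in each primary library, and 9 or 10 of them were in each line. Meox1, Pax2 and Eya1 were nevertheless lower in the lines, with Pax2 at 0.241 to 73.3 there and 68.6 to 160.5 in primary NPCs. The Six2-negative libraries carry NPC in their cell type label, yet their summed level of the 10 markers was 159.5 and 200.8, against 907 to 1528 in primary NPCs. In the 9 withdrawal libraries RNA type and culture condition differ together from the lines, so levels of the lines and of the withdrawal libraries were not tested against each other. Line libraries did not all pair by label, though the lowest r of any pair was 0.96. Log2 values of the P1 line at P80 correlated with those of the E11.5 and E13.5 lines at P80 at r = 0.985 each. With the P1 line at P20 its r was 0.968. The E13.5 line at P20 had r = 0.975 with its own P80 library, 0.979 with the E11.5 line at P80 and 0.98 with the P1 line at P80. The P1 line at P20 was closest to the E16.5 line at P20, at r = 0.98.

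Promoter sequences show what the genes carry directly before their transcription start. RefSeq promoters on GRCm38.p6 were at hand for 4 of the 6 genes, Saa3, Lcn2, C3 and Mmp13. In the 250 bases before each start, both strands were searched for a STAT motif (TTCNNNGAA), a C/EBP motif (TTGCNNAA), an AP-1 motif (TGANTCA) and the NF-kB consensus of 10 letters. Capitals below mark the matches, and no 2 matches overlapped. The sequences run from 5′ to 3′ on the strand of the gene and are shown because the genes that encode C/EBP and AP-1 factors are among those whose levels are given further on.
Saa3, chr7:46715677-46715926, minus strand: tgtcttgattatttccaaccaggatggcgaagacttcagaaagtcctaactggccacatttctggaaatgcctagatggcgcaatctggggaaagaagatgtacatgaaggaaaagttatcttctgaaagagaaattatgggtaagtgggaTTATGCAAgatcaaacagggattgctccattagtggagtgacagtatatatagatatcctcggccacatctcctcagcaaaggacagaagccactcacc
Lcn2, chr2:32387740-32387989, minus strand: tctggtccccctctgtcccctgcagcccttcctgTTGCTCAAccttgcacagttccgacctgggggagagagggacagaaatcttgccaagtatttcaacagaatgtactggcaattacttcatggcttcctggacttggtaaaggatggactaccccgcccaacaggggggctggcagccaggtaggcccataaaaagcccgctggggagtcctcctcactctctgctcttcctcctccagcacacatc
C3, chr17:57228137-57228386, minus strand: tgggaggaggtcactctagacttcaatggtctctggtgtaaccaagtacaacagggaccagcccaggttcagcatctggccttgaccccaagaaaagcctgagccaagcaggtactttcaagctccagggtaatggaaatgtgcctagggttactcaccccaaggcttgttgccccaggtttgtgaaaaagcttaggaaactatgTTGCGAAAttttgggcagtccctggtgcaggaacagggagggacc
Mmp13, chr9:7272264-7272513, plus strand: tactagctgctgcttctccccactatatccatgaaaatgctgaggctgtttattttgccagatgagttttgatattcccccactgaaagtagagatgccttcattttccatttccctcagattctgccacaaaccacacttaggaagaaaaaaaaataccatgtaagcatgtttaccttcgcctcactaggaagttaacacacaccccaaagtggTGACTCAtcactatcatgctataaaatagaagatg
Saa3, Lcn2 and C3 each held 1 C/EBP match, from 99, 216 and 45 bases before the start, and Mmp13 held 1 AP-1 match from 35 bases before it. Of the 32851 promoter entries of the same length, 9.56% held the C/EBP motif, 6.75% the AP-1 motif, 7.02% the STAT motif and 3.9% the NF-kB consensus. Neither the STAT motif nor the NF-kB consensus was in the 4 windows. A match is a run of letters in these windows and was not shown to be bound.

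The 6 genes were at low levels in uncultured cells and differed widely in culture. Over the 12 primary and Six2-negative libraries the highest RPKM was 0.577 for Saa3, 0.481 for A2m, 1.08 for C3, 1.15 for Mmp13, 3.20 for Hp and 10.2 for Lcn2. Saa3 was listed at 0 in 4 of these 12 libraries, Mmp13 in 5 and Lcn2 in 7. The lines held A2m and Mmp13 at clearly measurable levels, Saa3 in some lines, and Hp near the level of the embryonic cells. In the 2 libraries without BMP7 every one of the 6 genes reached its highest level of the series.

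**Figure D1:**
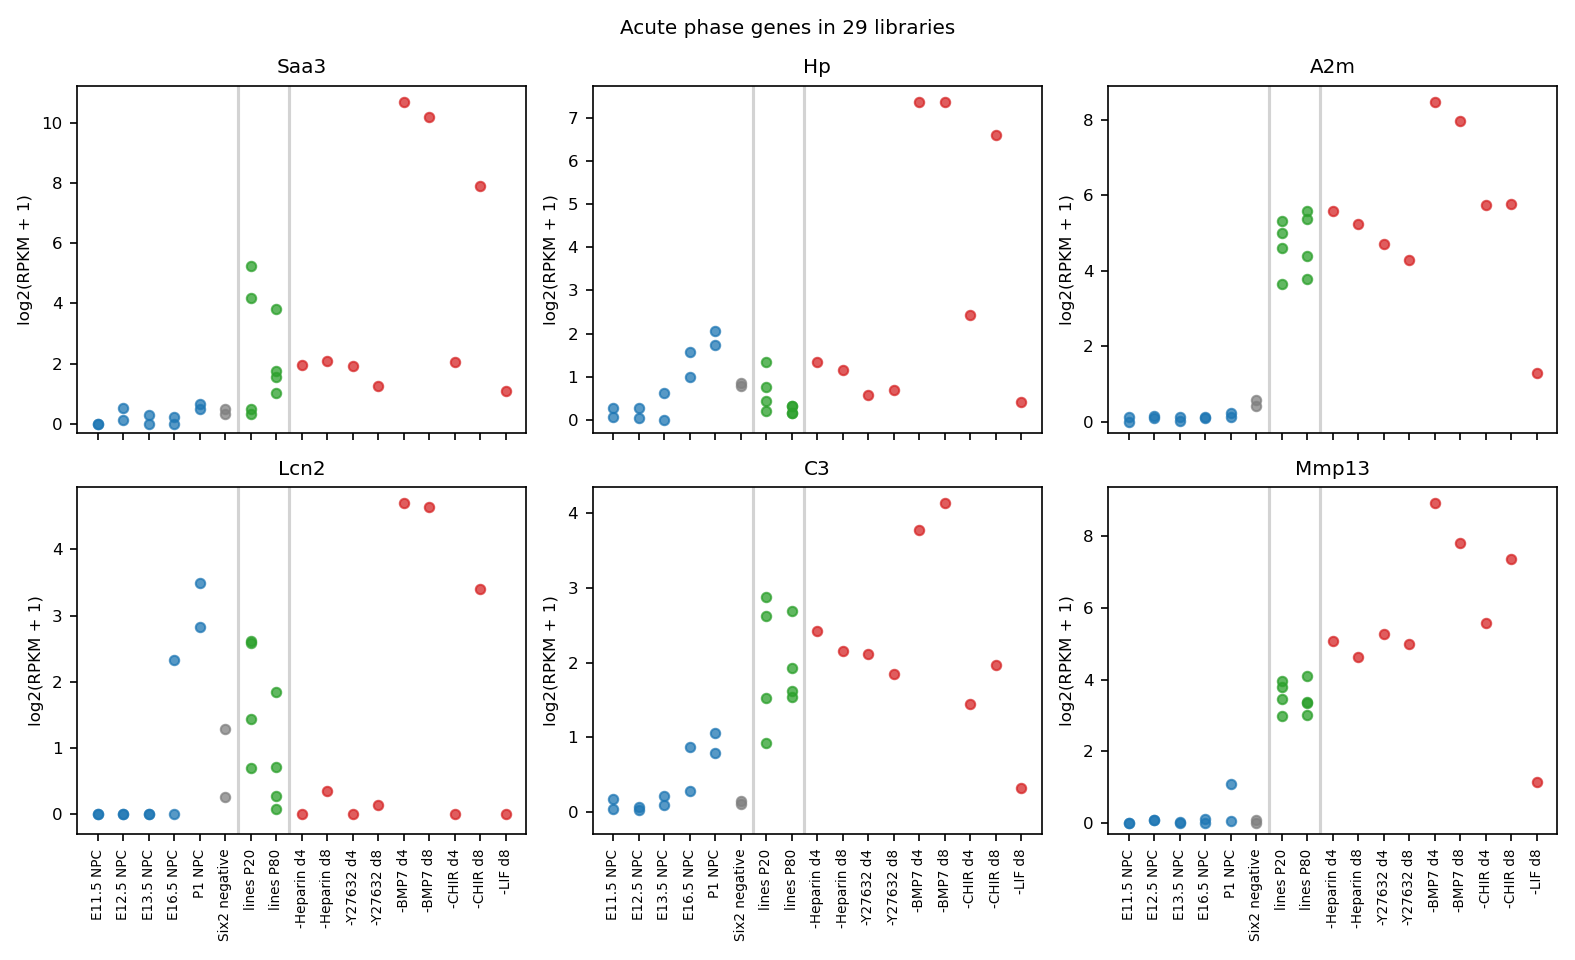
Level of each gene as log2(RPKM + 1) in the 29 libraries, 1 panel per gene, 1 point per library, with primary NPCs in blue, Six2-negative cells in grey, lines in green and withdrawal libraries in red (d4 and d8 are days 4 and 8). The points without BMP7 are the highest of each panel, and A2m and Mmp13 of all 8 lines lie above all 12 uncultured libraries.

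A2m encodes alpha-2-macroglobulin, a plasma protein that traps proteases, and in the rat it is a strong acute phase reactant under STAT3. The line from E11.5 kidneys had an A2m RPKM of 31.1 at P20 and 40.1 at P80. In the E13.5 line the values were 39.3 and 20.1, and in the E16.5 line 11.49 and 12.7. The P1 line had 23.1 at P20 and 46.8 at P80. The E16.5 line was the lowest at both passages, and the whole span over the 8 libraries was 4.07-fold. The lowest of the 8 values, 11.49, was far above the highest of the 12 uncultured libraries, 0.481. The mean was 26.3 ± 11.9 (SD, n = 4) at P20 and 29.9 ± 16.1 at P80, against 0.0764 ± 0.0533 (n = 8) in primary NPCs of the same 4 ages. Without the P1 line at P80 the P80 mean was 24.3 ± 14.2 (n = 3).

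Mmp13 encodes collagenase 3, a matrix metalloproteinase that cleaves fibrillar collagen and is known from cartilage and bone. Its RPKM was 14.5 and 9.12 in the E11.5 line at P20 and P80. It was 9.97 and 7.06 in the E13.5 line, 12.7 and 16.0 in the E16.5 line and 6.89 and 9.32 in the P1 line. Mmp13 was the most even of the 6 genes over the lines, with a 2.32-fold span, and every line again lay above every uncultured library. Its mean was 11.01 ± 3.32 (SD, n = 4) at P20 and 10.4 ± 3.88 at P80, and 10.7 ± 4.67 (n = 3) without the P1 line at P80. Over all genes, 5.35% of the 13931 with an RPKM of at least 1 in 2 of these 20 libraries had all 8 lines above all 12 uncultured libraries. A2m and Mmp13 did so among the 6 genes, and nothing is read from that count since the genes were chosen on cultured levels. The summed RPKM of 8 osteoblast and cartilage markers was 5.82 to 23.6 in the lines and 29.4 to 93.1 in primary NPCs, with Ibsp at 0 in all 8 lines.

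Saa3 encodes serum amyloid A3, the serum amyloid of the mouse that is made mostly outside the liver. Its RPKM at P20 was 0.408 in the E11.5 line, 0.24 in the E13.5 line, 17.1 in the E16.5 line and 37.0 in the P1 line. At P80 the values were 1.02, 1.94, 13.1 and 2.36 in the same order. Both E16.5 libraries and the P1 line at P20 were thus high, while the 5 other line libraries were below 3 RPKM. The 154-fold span between lines was the widest of the 6 genes. Only the 2 line libraries with the lowest values, E11.5 and E13.5 at P20, were within the range of the uncultured cells. Without the P1 line at P80 the mean at P80 was 5.35 ± 6.73 (SD, n = 3), against 4.60 ± 5.69 (n = 4) with it.

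C3 encodes the central component of complement, cleaved in all activation routes. Its RPKM was 0.885 and 2.07 in the E11.5 line at P20 and P80, and 1.87 and 2.80 in the E13.5 line. In the E16.5 line it was 6.36 and 5.47, and in the P1 line 5.19 and 1.92. The 3 libraries highest in Saa3 were also the 3 highest in C3, in another order, and 7 of the 8 were above the highest uncultured library (1.08). The mean was 3.58 ± 2.62 at P20 and 3.06 ± 1.65 at P80 (SD, n = 4), and 3.45 ± 1.79 (n = 3) without the P1 line at P80.

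Lcn2 encodes lipocalin 2, which binds iron-carrying siderophores and is made by neutrophils and injured epithelia. Its RPKM was 0.617, 1.70, 5.14 and 5.03 at P20, in the order of the lines' ages, and 0.0572, 0.209, 2.61 and 0.64 at P80. Each of the 4 lines had the lower value at P80, by 0.61 to 1.88 on the log2(RPKM + 1) scale. Hp encodes haptoglobin, the plasma protein that binds free hemoglobin. Its RPKM was 0.156, 0.69, 0.366 and 1.55 at P20 and 0.26, 0.119, 0.124 and 0.26 at P80. No line exceeded the highest uncultured library for either gene, which was 10.2 for Lcn2 and 3.20 for Hp. In Hp only 1 of the 8 line libraries, the P1 line at P20, was above an RPKM of 1.

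On the log2(RPKM + 1) scale, which understates the change of low genes, the fitted difference of the lines from primary NPCs was 4.54 ± 0.28 (SE) at P20 and 4.68 ± 0.28 at P80 for A2m and 3.38 ± 0.25 and 3.29 ± 0.25 for Mmp13. It was 2.35 ± 0.65 and 1.82 ± 0.65 for Saa3, and 1.55 ± 0.25 and 1.51 ± 0.25 for C3. For Lcn2 it was 0.75 ± 0.48 at P20 and -0.35 ± 0.48 at P80, and for Hp -0.22 ± 0.27 and -0.67 ± 0.27. With a pseudocount of 0.1 the differences were 7.15 and 7.29 for A2m, 6.07 and 5.97 for Mmp13 and 2.96 and 2.98 for C3. They were 3.98 and 3.83 for Saa3, 2.35 and 0.23 for Lcn2 and -0.13 and -1.29 for Hp, so that Lcn2 at P80 took the other sign. Lcn2 at P80 was also above 0 without the P1 line at P80 (0.20) and against primary libraries of the same layout set (0.02). With quantile scaling Hp was 0.09 at P20 and -0.32 at P80. The median over the 6 genes was 1.95 at P20 and 1.66 at P80, beside -0.11 at both passages over all 13612 genes tested. Nothing is read from that gap, since the 6 genes were chosen on cultured levels. Of all genes, 36.1% passed limma with an adjusted p under 0.05 at P20 and 39.3% at P80. The calls were 1974 higher and 2942 lower at P20 and 2083 and 3268 at P80, and 2249 and 2097, and 2477 and 2511, with quantile scaling.

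**Figure D2:**
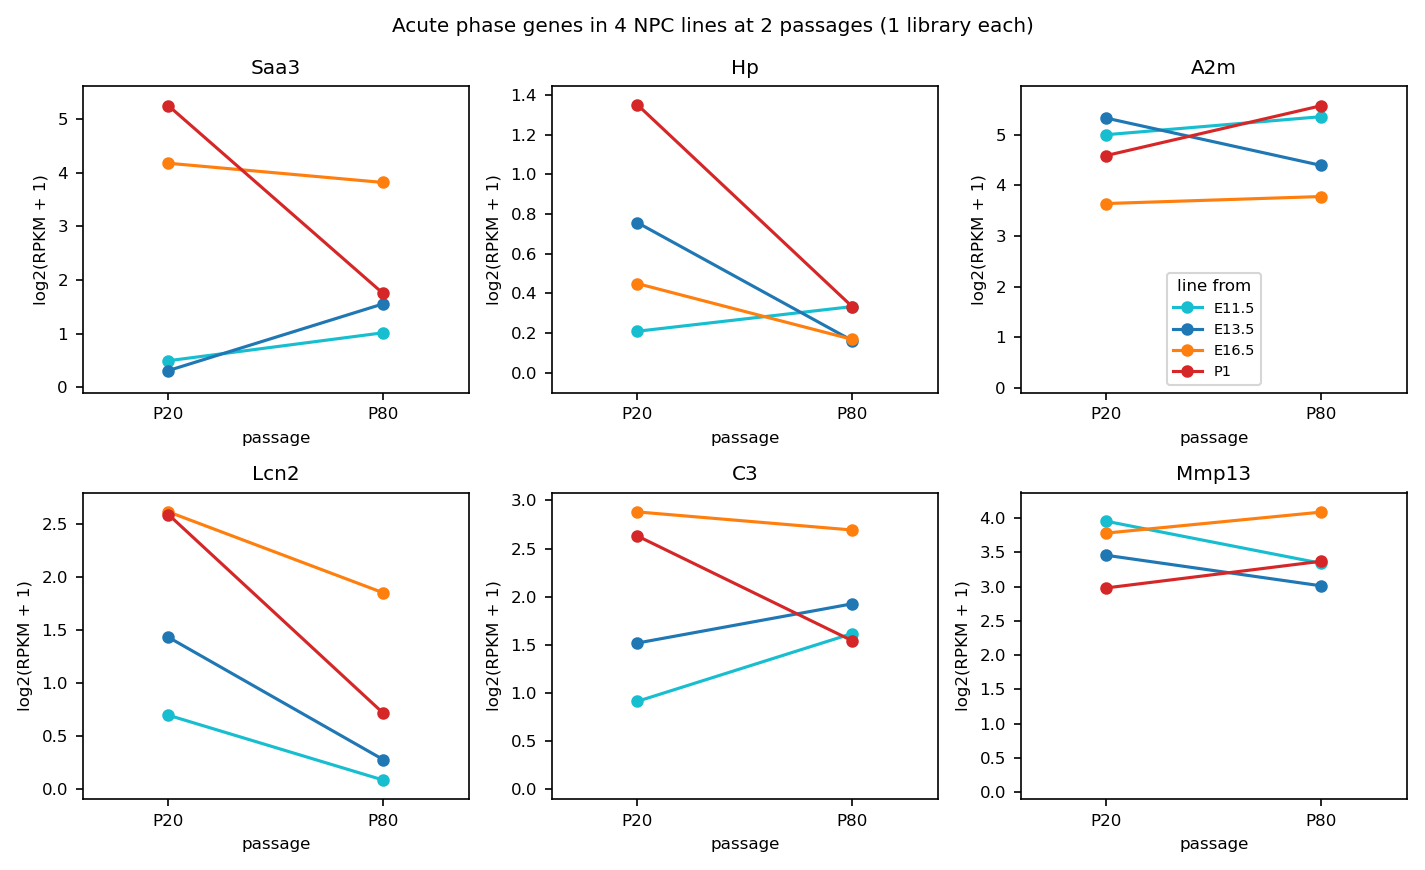
Level of each gene as log2(RPKM + 1) at passages P20 and P80 of the 4 lines, 1 library per point, with lines coloured by the age of the kidney they came from. Lcn2 is lower at P80 in all 4 lines, and for Saa3 and C3 the E11.5 and E13.5 lines are higher and the E16.5 and P1 lines lower at P80.

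Between passages the 6 genes moved in different ways. The log2(RPKM + 1) difference of P80 from P20 for Saa3 was 0.52 in the E11.5 line, 1.24 in the E13.5 line, -0.36 in the E16.5 line and -3.50 in the P1 line. For C3 it was 0.70, 0.41, -0.19 and -1.09 in the same order. For Mmp13 the signs were the other way round, at -0.61, -0.45, 0.31 and 0.39. A2m had differences of 0.36, -0.94, 0.14 and 0.99, and Hp of 0.12, -0.59, -0.28 and -1.02. The P1 line, whose P80 library resembled the E11.5 and E13.5 lines, had the largest difference for Saa3, A2m, Lcn2, C3 and Hp. Across all 12129 genes limma called 0.0% between the passages at an adjusted p under 0.05, that is 0 genes, with 1482 at an unadjusted p under 0.05 and 1 gene called without the line of origin as a block. The passages also differ in the layout of the last lines of the table, so passage and that layout cannot be told apart.

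Withdrawal of BMP7 gave the highest levels of all 6 genes. Saa3 had an RPKM of 1642 at day 4 and 1172 at day 8, ranks 31 and 52 among 23918 symbols. It was 2.91 and 3.21 without heparin and 2.78 and 1.397 without Y27632. The BMP7 values were 577 and 509 times the mean of these comparators on the same day. Without CHIR, Saa3 was 3.18 at day 4, among the comparators, and 238 at day 8, 103 times their mean. Without LIF it was 1.13 at day 8, below the other 4 libraries of that day.

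Hp had an RPKM of 164 at both days without BMP7. It was 1.55 and 1.23 at days 4 and 8 without heparin and 0.499 and 0.63 without Y27632. Without CHIR it was 4.37 at day 4 and 96.5 at day 8, so that it was above both comparators on each day, 4.27 and 104 times their mean. Without LIF it was 0.324. Haptoglobin transcripts, scarce in every line, thus ranked 641 and 614 among all symbols without BMP7 and 1033 at day 8 without CHIR.

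Lcn2 was listed at 0 at day 4 without heparin, Y27632 and CHIR, and at day 8 without LIF. At day 8 it was 0.27 without heparin and 0.101 without Y27632. It was 25.1 and 24.0 without BMP7 and 9.60 at day 8 without CHIR. These 3 libraries were the only withdrawal libraries with an RPKM of at least 1. At day 8 the value without BMP7 was 129.8 times the mean of the 2 comparators and that without CHIR 51.8 times. No ratio is given for day 4, where both comparators were at 0.

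A2m had an RPKM of 355 and 252 without BMP7, 9.85 and 9.09 times the comparators, which ranged from 18.6 to 46.8. Without CHIR it was 52.3 and 53.2, 1.45 and 1.92 times the mean of the comparators. Without LIF A2m was 1.43, 19.3 times below the mean of heparin and Y27632 at day 8. Mmp13 was 479.5 and 224 without BMP7 and 47.0 and 162 without CHIR, beside 23.7 to 37.2 in the comparators. Without LIF Mmp13 was 1.22, 22.4 times below the comparators. These were the lowest A2m and Mmp13 values of all 17 cultured libraries, which otherwise had at least 11.49 for A2m and 6.89 for Mmp13.

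C3 was 12.7 and 16.7 without BMP7, beside 2.61 to 4.35 in the comparators. Its ratio of 3.30 at day 4 and 5.51 at day 8 was the smallest of the 6 genes. Without CHIR C3 was 1.72 and 2.91, at day 4 below both comparators and at day 8 between them. Without LIF it was 0.25, 12.2 times below the comparators. C3 was thus outside the group of Saa3, Hp, Lcn2 and Mmp13, which were high at day 8 without CHIR.

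**Figure D3:**
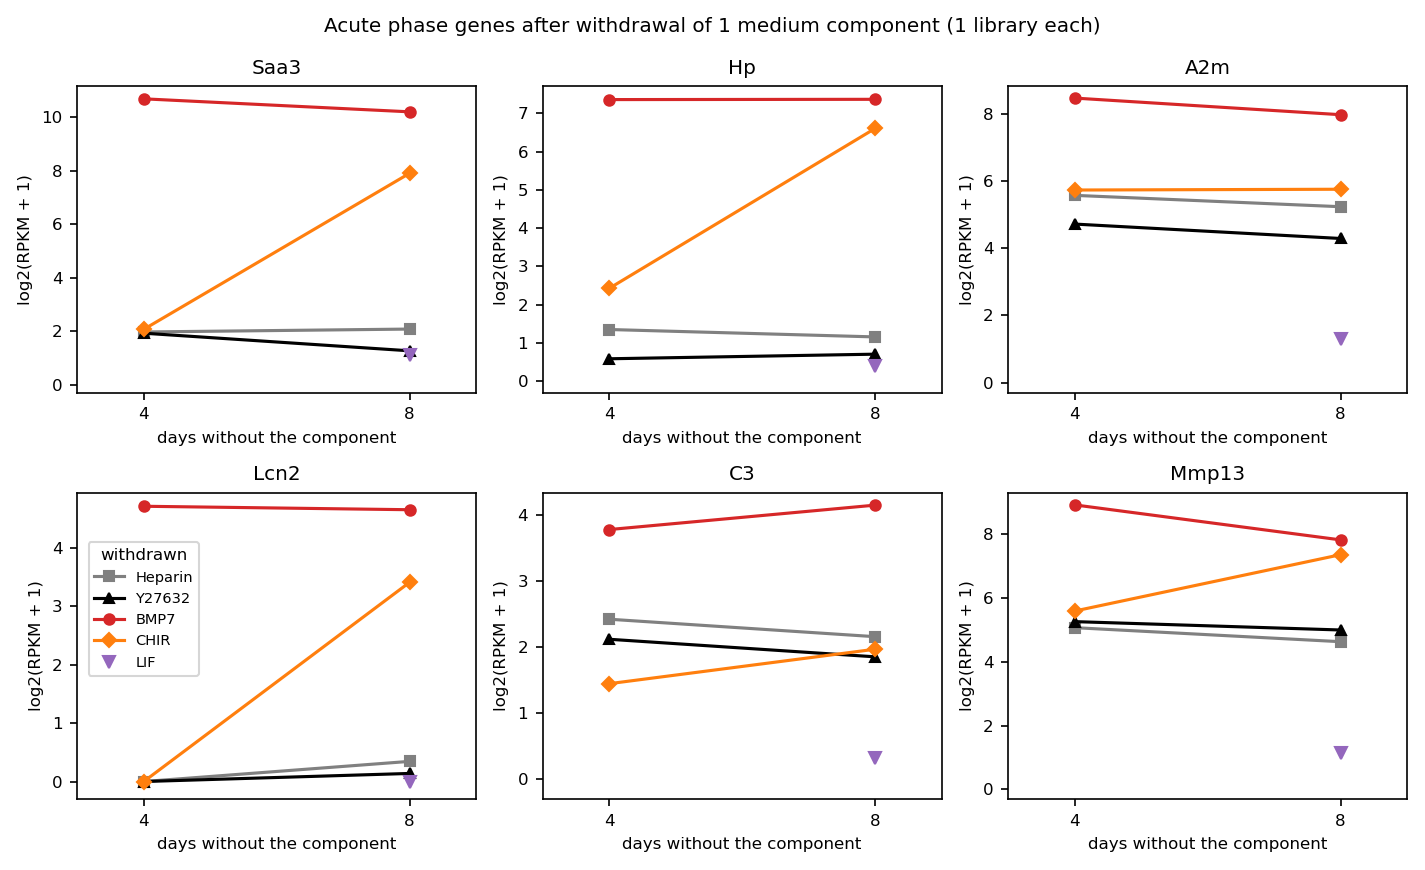
Level of each gene as log2(RPKM + 1) after 4 and 8 days without 1 medium component, 1 library per point, coloured by the component left out. The points without BMP7 are the highest on both days, the points without CHIR are higher at day 8 than at day 4 for Saa3, Hp, Lcn2 and Mmp13, and the point without LIF is the lowest for A2m, C3 and Mmp13.

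A gene was counted as past the fold where it differed by at least 1 on the log2(RPKM + 1) scale from the nearest comparator on each day available. By that rule 6 of the 6 genes were higher without BMP7, beside 4.06% of the 12189 genes that reached an RPKM of 1 in 2 of the 9 libraries. Without CHIR, 1 of the 6, Hp, was higher on both days, beside 1.2% of all genes. At day 8 alone, a count added after the values were seen, 4 of the 6 were higher without CHIR, beside 6.78%. A2m, C3 and Mmp13 were lower without LIF than in the other 4 libraries of day 8, beside 0.845% of all genes. Nothing is read from these counts for the 6 genes, since the choice used these libraries. There is 1 library per condition, so no test was made. In bulk libraries more cells that make a transcript and more transcript per cell cannot be told apart.

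Markers of cells that make these proteins in the body were read in the same libraries. The summed RPKM of 9 hepatocyte markers was at most 1.62 in the lines and 0.783 in the withdrawal libraries, and Alb and Apob were at 0 in both BMP7 libraries. Of 9 neutrophil markers 7 were at 0 in both BMP7 libraries and 6 in both CHIR libraries, and their sum was 1.21 to 1.98 without BMP7 and 1.01 to 3.04 without CHIR. Of 16 macrophage markers 6 were at 0 without BMP7, among them Ptprc, C1qa and Itgam. Their sum of 24.4 to 25.3 there, compares with 13.8 to 17.95 in the comparators, 14 to 37.2 in the lines and 48 without LIF. Of 4 macrophage markers that passed the filter, Mrc1 (7.88 and 8.83, beside at most 0.179) and C1qb (3.69 and 1.595, beside 0) were past the fold without BMP7. Fcer1g was 2.71 and 2.26, beside 0.719 to 2.39, and 9.74 at day 8 without CHIR. Of 10 renal stroma markers 3 were past the fold without BMP7, and their sum was 358 to 448, beside 87.8 to 136 in the comparators. The sum was 362 to 377.5 without CHIR and 282 without LIF. The sum of the 10 NPC markers was 409.7 to 488 without BMP7, beside 626 to 695, with Sall1 at 2.24 and 1.635 against 20.6 to 28.4 and Pax2 at 0 against 0.262 to 1.965. Pax2 was also 0 without LIF, and 0.0194 and 0.11 without CHIR. Meox1, another of these markers, was higher without BMP7, at 52.5 and 36.9 beside 1.75 to 2.245, and was past the fold without CHIR on both days too. The sum of the 10 NPC markers was 282.6 to 787.5 without CHIR and 346 without LIF. Spp1, an injury-associated tubule gene, was 1625 and 1251 without BMP7 and 2169 at day 8 without CHIR, beside 302 to 391 in the comparators, while Havcr1 was at 0 in all 9 libraries. The part of these markers in the levels of the 6 genes was not tested.

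Other acute phase genes shared part of the pattern. Of 29 such genes, 11 passed the filter in the withdrawal libraries and 6 were past the fold without BMP7. A gene can pass that filter through the 2 BMP7 libraries alone, so these shares are descriptions. Cp, which encodes the ferroxidase ceruloplasmin, was 23.8 and 21.7 without BMP7 and at most 0.0666 in the comparators. Steap4, a metalloreductase, was 14.8 and 16.8, beside at most 0.089. Serpina3g and Mt1, a serine protease inhibitor and a metallothionein, were 186 and 187, and 604.5 and 469, beside 44.6 to 68.0 and 141 to 165. Saa1, a serum amyloid of the liver and also past the fold, was 1.33 and 1.55, beside at most 0.145, and Saa2, which was not, was 0.264 and 0.561. At day 8 without CHIR 6 of the 11 were past the fold, led by Serpina3n, the mouse counterpart of antichymotrypsin, at 169 against 15.0 and 14.5. Without LIF 4 of the 11 were lower, Serpina3n at 0.164, Serpina3g at 5.13, Mt2 at 10.1 and Mt1 at 68.05.

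Of 3 genes for negative acute phase proteins 1, Trf (transferrin), was past the fold without BMP7, and of 3 receptors and partners of the 6 proteins none was.

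Among complement genes other than C3, 4 of 14 were past the fold without BMP7. C7 and C6, components of the membrane attack complex, were 10.01 and 12.8 and 5.08 and 4.54, beside at most 0.217 and 0.0216 in the comparators. Vtn, which encodes vitronectin, was 17.5 and 14.2, beside 0.508 to 1.85. One of the 14, C1ra, was past it at day 8 without CHIR. Without LIF 2 were lower, Clu (clusterin) at 21.7, beside 129 to 215 in the other day 8 libraries, and Cfi (complement factor I) at 0.329. Among metalloproteinases and their inhibitors, 4 of 15 were past the fold without BMP7 and 8 of 15 at day 8 without CHIR. Mmp9, a gelatinase, was 295.5 and 426 without BMP7, 117 at day 8 without CHIR and 15.2 to 25.2 in the comparators. Mmp14, the membrane-type enzyme that can activate pro-MMP13, was 839.5 and 602 without BMP7 and 596 at day 8 without CHIR, beside 135 to 172. The stromelysins Mmp3 and Mmp10 did not share this direction, at 35.5 and 34.5 and 8.895 and 11.7 without BMP7 beside 47.5 to 90.1 and 14 to 44.

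**Figure D4:**
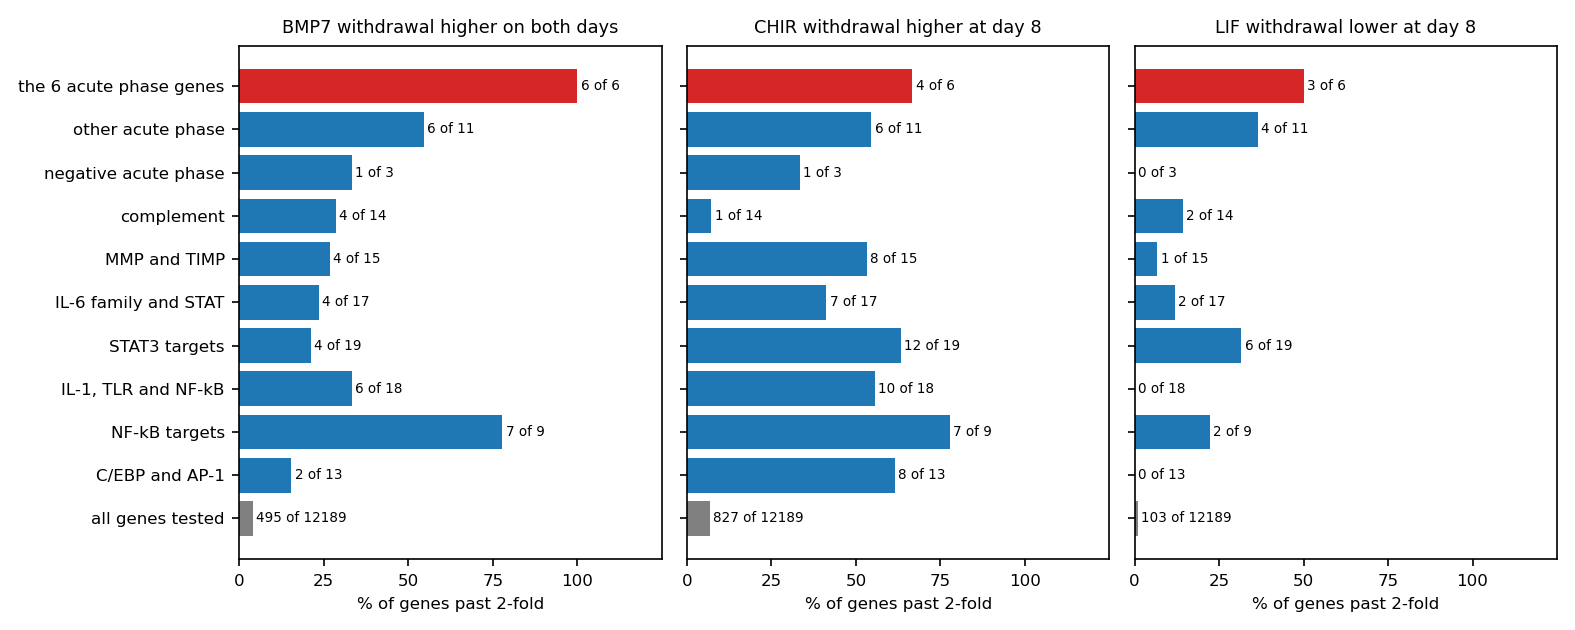
Share of each gene list that was past 2-fold on the log2(RPKM + 1) scale without BMP7 on both days, at day 8 without CHIR, and (lower) at day 8 without LIF, with the count of genes beside each bar and the 6 acute phase genes in red. NF-kB targets reach 7 of 9 without BMP7 and without CHIR and 2 of 9 without LIF, and the grey bars give all 12189 genes tested.

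Genes of the upstream pathways were read in the same libraries. Of 17 genes of the interleukin-6 family and STAT pathway, 4 were past the fold without BMP7, among them Il6st and Osmr. Il6st, which encodes gp130, was 53.5 and 52.9, beside 12.4 to 12.7. Without LIF 2 of the 17 were lower: Osmr, the oncostatin M receptor, at 0.213 beside 6.39 to 35.2, and Stat3 at 22.1 beside 54.8 to 96.0. Of 19 known STAT3 targets 4 were past the fold without BMP7, 12 at day 8 without CHIR and, lower, 6 without LIF. Socs3, the feedback inhibitor of the pathway, was 333 and 138 without BMP7, 106 at day 8 without CHIR and 7.57 without LIF, and in the comparators 108.5 to 144 at day 4 and 29.45 to 31.5 at day 8. Bcl3, an NF-kB cofactor and STAT3 target, was 0.566 without LIF and 16.1 to 44.2 in the other day 8 libraries.

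Of 18 genes of the interleukin-1, Toll-like receptor and NF-kB pathway 6 were past the fold without BMP7, 10 at day 8 without CHIR and none lower without LIF. Il1rn, the interleukin-1 receptor antagonist, was 35.1 and 30.8 without BMP7, 10.1 at day 8 without CHIR and at most 0.0517 in the comparators. Il1r1, the signalling receptor, was 28.6 and 28.7, beside 4.36 to 6.04. Of 9 NF-kB targets 7 were past the fold without BMP7 and 7 at day 8 without CHIR. The chemokine genes Ccl2 and Cxcl5 were 14.9 and 33.3, and 91.4 and 64.9 without BMP7, beside 0.0946 to 0.651 and 15.5 to 22.55. Of 13 C/EBP and AP-1 genes 2 were past the fold without BMP7 and 8 at day 8 without CHIR. Cebpd was 51.0 and 40.5 without BMP7 and 41.1 at day 8 without CHIR, beside 7.31 to 19.6, and 4.36 without LIF. Cebpa went another way in the LIF library: it was 27.7 and 17.5 without BMP7 and 59.8 at day 8 without CHIR, beside 3.82 to 4.47, yet 76.3 without LIF, where all 6 acute phase genes were at or below the comparators. The medians of these lists and of all genes are on the same scale: for BMP7 the median gap was 1.66 for NF-kB targets, 1.03 for other acute phase genes, 0.55 for STAT3 targets and -0.22 over all genes. A gene can pass the filter through the BMP7 libraries alone, so these shares and medians are descriptions. Nothing is read from their distance to all genes.

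The same lists were tested in the lines against primary NPCs (n = 4 at each passage and n = 8), with limma on log2(RPKM + 1) adjusted over all 13612 genes. Of all these genes 14.5% rose and 21.6% fell at P20, and 15.3% rose and 24.0% fell at P80. A gene could pass the filter through the line libraries alone, and such a gene was bound to be higher in the lines. List counts that hold such genes are descriptions. Of the 10 NPC markers 3, Meox1, Pax2 and Eya1, fell at each passage and none rose (median log2 change -0.23 at P20 and -0.36 at P80). Markers of other cell types fell in the same comparison: 8 of 15 macrophage markers at P20 and 9 of 15 at P80 (median log2 change -2.41 and -2.42), and 5 and 3 of 10 renal stroma markers. Their part in the changes below was not tested. Of 18 STAT3 targets tested, 8 rose and 3 fell at P20, and 9 rose and 3 fell at P80. Bcl3 rose from 0.899 ± 0.75 (SD) in primary NPCs to 52.3 ± 5.75 at P20 and 49.2 ± 8.02 at P80 (log2 change 4.89 ± 0.23, SE, and 4.80 ± 0.23, limma adjusted p = 1.94e-08 and 2.76e-08). Timp1, an inhibitor of metalloproteinases, rose from 21.6 ± 4.33 to 183.5 ± 40.65 and 192 ± 8.41 (log2 change 3.03 and 3.12). Of 16 interleukin-6 family and STAT genes 7 rose and 2 fell at P20, and 9 rose and 2 fell at P80. Stat3 itself rose from 6.998 ± 3.17 to 66.5 ± 3.03 and 65.5 ± 4.60 (log2 change 3.17 ± 0.21 and 3.14 ± 0.21, limma adjusted p = 2.72e-07 and 3.17e-07), and Osmr from 0.61 ± 0.53 to 6.998 ± 1.34 and 7.51 ± 1.88. Cntfr, the receptor of ciliary neurotrophic factor, fell at P20 from 163 ± 67.3 to 67.9 ± 11.04. The list medians were 0.20 and 0.565 for STAT3 targets and 0.37 and 0.545 for pathway genes at P20 and P80, beside -0.11 over all genes.

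Of 10 other acute phase genes tested 5 rose and 2 fell at P20, and 4 rose and 2 fell at P80. Serpina3n rose from 0.156 ± 0.253 to 8.74 ± 5.39 at P20 and 6.34 ± 1.43 at P80 (log2 change 2.95 ± 0.20 and 2.67 ± 0.20, limma adjusted p = 3.55e-07 and 9.1e-07). Saa1, in contrast to Saa3, fell from 7.68 ± 8.11 to 0.34 ± 0.353 at P20 and 0.0292 ± 0.0584 at P80 (log2 change -2.11 ± 0.45 and -2.455 ± 0.45, limma adjusted p = 0.00301 and 0.00104). Among 14 complement genes 2 rose, a share of 14.3% that is near that of all genes, and 5 fell at each passage. Clu rose from 40.1 ± 36.15 to 410 ± 265.9 and 234 ± 149. Of 16 metalloproteinases and inhibitors 6 rose and 4 fell at P20, and 7 rose and 2 fell at P80. Mmp10 and Mmp3 rose from 0.467 ± 0.367 and 0.00442 ± 0.0125 to 18.9 ± 7.02 and 9.14 ± 6.675 at P20 and to 22.6 ± 5.74 and 25.9 ± 16.8 at P80. Serpina3n and Mmp3, low in primary NPCs, passed the filter through the lines alone, so their calls are descriptions.

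Of 21 genes of the interleukin-1 and NF-kB pathway 5 rose and 1 fell at P20 and 7 rose and 1 fell at P80, with Tnfrsf1a at 136 ± 32.1 and 130.2 ± 17.8 against 51.4 ± 9.56. Of 11 NF-kB targets 3 rose and none fell at each passage, the 3 being Icam1, Cxcl1 and Cxcl5. Of 13 C/EBP and AP-1 genes 4 rose and 5 fell at P20, and 6 rose and 4 fell at P80. Cebpb rose from 7.875 ± 4.79 to 42.4 ± 8.94 and 46.8 ± 12.4 (log2 change 2.40 ± 0.24 and 2.53 ± 0.24, limma adjusted p = 7.89e-06 and 5.44e-06). The AP-1 genes Fos, Fosb and Jun fell, Fos from 758.5 ± 335 to 89.4 ± 83.8 and 69.45 ± 67.0. Of 6 genes for negative acute phase proteins, Rbp4 rose (2.38 ± 0.67 to 21.3 ± 4.69 and 13.9 ± 3.24) and Apoa1 fell at each passage. Among 7 receptors and partners of the 6 proteins, the serum amyloid receptor Scarb1 rose (25.6 ± 9.21 to 77.8 ± 16.97 and 65.9 ± 12.4) at each passage, Lrp1 passed the test at P80 (6.03 ± 3.63 to 12.9 ± 4.28, limma adjusted p = 0.021) and not at P20 (limma adjusted p = 0.0789), and the lipocalin 2 receptors Lrp2 and Slc22a17 fell. Against only the 4 primary libraries of their own layout set, fewer genes were called in the P20 lines: 1 of 10 other acute phase genes rose, 2 of 16 interleukin-6 family genes, 5 of 18 STAT3 targets and 0 of 11 NF-kB targets. At P80 the same restriction gave 3 of 9, 7 of 16, 9 of 18 and 3 of 6. Over all genes, 622 of 13238 rose at P20 under this restriction and 1769 of 12711 at P80.

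In a comparison that holds no cultured library, Hp and Lcn2 rose from E11.5 to P1. Of the 6 genes these 2 passed the filter of an RPKM of at least 1 in 2 of the 12 libraries, Hp through E16.5 and P1 libraries and Lcn2 through E16.5, P1 and Six2-negative libraries, so that genes which passed were bound to vary. Hp had an RPKM of 0.202 and 0.0449 at E11.5, 0.209 and 0.0243 at E12.5, 0.544 and 0 at E13.5, 1.95 and 0.989 at E16.5 and 2.35 and 3.20 at P1. Both P1 libraries were above all others, and both E16.5 libraries above those of earlier ages. From E11.5 to P1 the log2(RPKM + 1) change of Hp was 1.74 ± 0.28 (SE, n = 2 and 2), with a limma adjusted p of 0.00345. Lcn2 was listed at 0 in all 6 libraries of E11.5 to E13.5, was 4.01 and 0 at E16.5 and 10.2 and 6.12 at P1. Its change from E11.5 was 3.16 ± 0.65 (limma adjusted p = 0.00837), a value that depends on the pseudocount because the E11.5 libraries are at 0. The call of Lcn2 was lost without E11.5 library 1 (limma adjusted p = 0.0534) and without P1 library 1 (limma adjusted p = 0.0502), and the range over the single omissions of libraries was 0.000999 to 0.0534. Over all genes 35.1% of 13574 were called in this comparison, 2369 higher and 2400 lower (1603 and 2699 with quantile scaling), so that 2 calls among 2 tested genes stand beside a high background.

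C3 did not pass the filter and was 0.125 and 0.0208 at E11.5, 0.829 and 0.218 at E16.5 and 0.727 and 1.08 at P1. Saa3 did not exceed 0.577, A2m 0.177 and Mmp13 1.15 in any primary library, and the Mmp13 value came from P1 library 1, with 0.037 in P1 library 2. In Six2-negative cells of E12.5, Hp was 0.816 and 0.729 against 0.209 and 0.0243 in E12.5 NPCs, a log2 difference of 0.67 ± 0.28 (SE, n = 2 and 2; limma adjusted p = 0.158). Lcn2 was 1.44 and 0.202 against 0 and 0, a difference of 0.77 ± 0.65 (limma adjusted p = 0.492). Neither passed the test, beside 13.6% of all genes, although both Hp values lay above those of E12.5 NPCs. A2m was 0.325 and 0.48 in Six2-negative cells, the highest uncultured values, against 0.0735 and 0.105 in E12.5 NPCs.

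Neutrophil markers were highest at P1 in uncultured libraries, as Hp and Lcn2 were. Macrophage markers were high in 1 of the 2 P1 libraries and in 1 of the 2 E16.5 libraries. S100a8, a neutrophil gene, had an RPKM of 61.3 and 47.5 at P1 and 4.34 and 0 at E16.5, where Lcn2 was 4.01 and 0, and at most 0.317 at E11.5 to E13.5. In the Six2-negative libraries S100a8 was 22.3 and 2.09, where Lcn2 was 1.44 and 0.202 and Hp 0.816 and 0.729. C1qa, a macrophage gene, was 182 and 11.6 at P1 and at most 21.1 at E11.5 to E13.5. At E16.5 it was 96.7 in the library where Lcn2 was 4.01, and 3.02 in the other. The sum of 9 neutrophil markers was 121.5 to 122.5 at P1 and 0.453 to 12.8 at E16.5. It was at most 0.708 at E11.5 to E13.5, with Ngp and Retnlg at 0 in those 6 libraries. The sum of 16 macrophage markers was 146 to 1692 at P1, 57.0 to 799 at E16.5 and 40.3 to 203.5 at E11.5 to E13.5. That of 9 hepatocyte markers was 14.7 to 70.2, 11.25 to 37.5 and 0.545 to 1.38 at the same ages. Of 6 neutrophil markers tested 5 rose from E11.5 to P1, of 4 hepatocyte markers 2 and of 14 macrophage markers 0, beside 17.5% of all genes. The median log2 change was 2.58 for neutrophil, 1.94 for hepatocyte and 2.59 for macrophage markers, beside 0.04 over all genes. Macrophage markers differed widely between the 2 P1 libraries, so the count of 0 does not show that they did not rise. The part of these markers in the levels of Hp and Lcn2 was not tested. In the lines S100a8 was at most 0.24, with Ngp and Retnlg at 0, while Lcn2 reached 5.14.

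**Figure D5:**
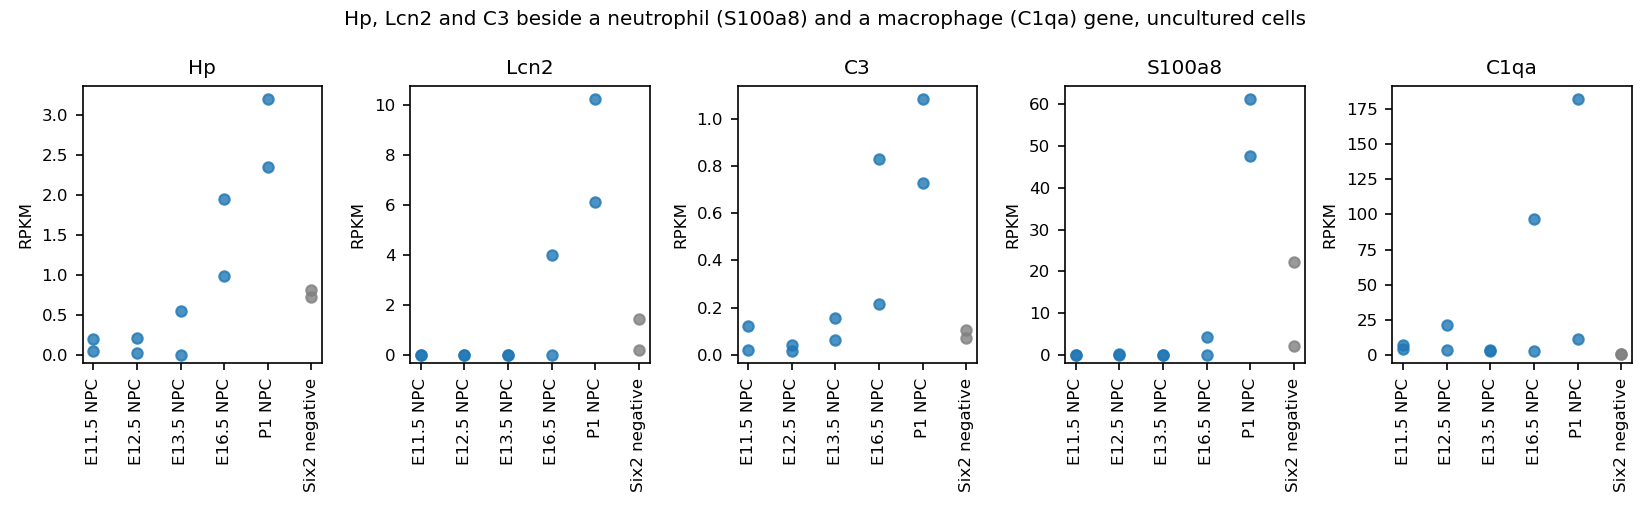
RPKM of Hp, Lcn2 and C3 beside S100a8, a neutrophil gene, and C1qa, a macrophage gene, in the 12 uncultured libraries, 1 point per library, with primary NPCs in blue and Six2-negative cells in grey. Hp, Lcn2 and S100a8 have their 2 highest values in the P1 libraries, and C1qa has its highest, 182, in P1 library 1.

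The other genes of these lists rose more often than they fell from E11.5 to P1, where 17.5% of all genes rose and 17.7% fell. Of 10 renal stroma markers 7 rose as well, with a sum of 366 to 439.8 at P1 and 84.5 to 175 at E11.5 to E13.5, and their part was not tested. Of 8 other acute phase genes 6 rose, among them Saa1 from 0.984 ± 0.0464 to 19.5 ± 3.71 (SD, n = 2; log2 change 3.355 ± 0.23, limma adjusted p = 0.00012) and Serpina3g from 0.0925 ± 0.0706 to 13.1 ± 2.04. Of 14 complement genes 8 rose and none fell. Of 17 STAT3 targets 9 rose, with Ifitm3 from 3.78 ± 0.6985 to 197 ± 81.7 and Socs3 from 53.9 ± 15.85 to 192 ± 30.8, and of 16 pathway genes 7 rose and Cntfr fell. Of 9 NF-kB targets 8 rose and of 21 pathway genes 8 rose and 1 fell, with Il1b at 13.2 ± 15.4 against 0.239 ± 0.145. Of 12 C/EBP and AP-1 genes 8 rose and 1 fell, of 10 metalloproteinases and inhibitors 4 rose, and of 6 negative acute phase genes Ttr rose. When single libraries were left out, the number that rose moved between 2 and 9 for NF-kB targets, 3 and 11 for STAT3 targets, 1 and 8 for interleukin-6 family genes, 2 and 12 for interleukin-1 pathway genes and 1 and 8 for C/EBP and AP-1 genes. It moved between 4 and 9 for complement, 4 and 6 for other acute phase genes, 2 and 4 for metalloproteinases and 1 and 4 for negative acute phase genes. Between Six2-negative cells and E12.5 NPCs 5 of 10 metalloproteinases and inhibitors rose, led by Mmp2 (156 ± 40.65 against 31.0 ± 7.52), 2 of 14 complement genes, Serping1 among them, rose and Cd55 fell, and 2 of 8 other acute phase genes, Ptx3 and Serpina3g, rose. Of the remaining lists 3 of 16 interleukin-6 family genes, 2 of 17 STAT3 targets, 1 of 21 interleukin-1 pathway genes, 1 of 9 NF-kB targets and 1 of 12 C/EBP and AP-1 genes rose. Of all genes 9.28% rose and 4.32% fell in that comparison, so the last 4 shares (4.76 to 11.8%) are near the background. With single libraries left out the number of metalloproteinases that rose moved between 0 and 6, that of complement genes between 0 and 3 and that of other acute phase genes between 1 and 2, and each of the remaining lists had 0 at the lowest.

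Across the 29 libraries the 6 genes fell into pairs of unlike closeness. Pearson's r of log2(RPKM + 1) was 0.95 between A2m and Mmp13 and 0.83 over the 17 cultured libraries alone. It was 0.87 between Saa3 and Hp (0.91 in culture) and 0.76 between Saa3 and Lcn2 (0.93 in culture). A2m and Lcn2 had the lowest value, 0.37 (0.58 in culture). These libraries share 1 strain, and the 2 BMP7 libraries hold the top values of both genes in each pair, so the coefficients are descriptions.

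The genes most like each of the 6 were sought among 11292 others with a highest RPKM of at least 5. Hp was closest to Il1rn (r = 0.967 over 29 libraries and 0.977 over 17 cultured ones), the chemokine gene Cx3cl1 (0.960 and 0.975) and the interleukin-13 decoy receptor Il13ra2 (0.955 and 0.968). Mmp13 was closest to the transcription factor gene Runx1 (0.969 and 0.917), Fam43a (0.962 and 0.902) and Serpina3n (0.956 and 0.861). A2m was closest to Adamts4, an aggrecan-cleaving protease gene (0.958 and 0.807), Xbp1, a transcription factor gene of the unfolded protein response (0.948 and 0.811), and Hivep2 (0.944 and 0.741). C3 was closest to Agtrap (0.926 and 0.851), Parp10 (0.920 and 0.838) and Cfi, which encodes the protease that inactivates C3b (0.912 and 0.829). Saa3 was closest to Mcoln2 (0.905 and 0.894), the interleukin-17 receptor gene Il17ra (0.904 and 0.882) and the phospholipase gene Pla2g5 (0.898 and 0.889), and Lcn2 to Dhrs7 (0.891 and 0.908), Ostm1 (0.884 and 0.899) and Atxn1 (0.861 and 0.842). Of these 18 genes 13 had their highest level in a BMP7 library and 5, Il17ra, Cx3cl1, Hivep2, Fam43a and Serpina3n, at day 8 without CHIR.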

How the data were processed

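RPKM values per gene and library were taken as deposited. For the 20 poly(A) RNA libraries STAR and Cufflinks with the mm9 build are named, per the submitters' processing notes. For the 9 withdrawal libraries, of total RNA, no tool was named in the labels. The deposited table has 23947 lines: 27 symbols turned into dates and 2 last lines that name no usable gene were left out. The last lines had a shifted layout in 18 libraries and not in 11. The 18 hold all P80 and none of the P20 line libraries. Read counts could not be recovered, since 42.5 to 56.5% of low values lay within 10% of whole reads. Intervals from counts are therefore not given.

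Log2(RPKM + 1) was tested with limma 3.58.1 in R 4.3.3 (variance trend, two-sided, Benjamini-Hochberg adjustment, threshold 0.05) over genes that reached an RPKM of 1 in 2 libraries. The 12 uncultured libraries formed 1 fit, the lines and primary NPCs of their ages another with age of origin as a term, and the 8 line libraries the last with line as a block. The labels do not tie libraries to separate animals or cultures, so p-values measure the spread between samples, which may be technical. The script was tested on simulated data.

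The 6 genes and all lists were chosen with earlier results of these data known. From each list up to 4 called genes per comparison are named, those with the largest change. Mmp3, Mmp10, Saa2 and, without LIF, Cebpa and Cebpd were named after their values were seen. Alternatives were a pseudocount of 0.1, no filter, quantile scaling, single libraries left out, a replicate block and the layout sets. Some genes of the lists are not reported here by name.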

Additional observations from a re-analysis of the deposited data

Results flagged for a closer look

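Among the 4 lines at P80 Saa3 had 1 library far from the others, the E16.5 line at 13.1 RPKM, whose gap to the next value was 0.889 of the whole range. Of 12 groups of 4 examined this was the only 1 marked. The 4 libraries are of different lines, and the E16.5 line was also at 17.1 RPKM at P20. Nothing is read from this mark, since the gene was chosen on cultured levels.

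Between P20 and P80 Saa3 and C3 were higher in both lines of E11.5 and E13.5 origin and lower in both of E16.5 and P1 origin. The mean log2(RPKM + 1) change of the earlier lines exceeded that of the later ones by 2.81 for Saa3 and by 1.19 for C3. For Mmp13 the directions were opposite, with a difference of -0.876. These differences were not tested. The P1 line at P80, the library closest to the E11.5 and E13.5 lines, enters all 3 values.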

How the results depend on the processing

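Leaving out single libraries moved the number of genes called by limma from 1846 to between 400 and 2397 for Six2-negative cells against E12.5 NPCs, and from 4769 to between 1427 and 6376 for P1 against E11.5. The ranges were 3742 to 5821 for lines at P20 and 3887 to 6564 for lines at P80 against primary NPCs. Between passages 1 to 2 genes were called with a library left out and 1 with no line block, against 0. Against primary libraries of the same layout set 1262 genes were called at P20, beside 4916, and 4262 at P80, beside 5351. The cause was not tested. With the E13.5 lines as comparators, chosen after seeing the data, 2 of the 6 genes were past the fold without CHIR on both days, beside 1. RNA type differs between these libraries and no share over all genes is given, so nothing is read from this count. No value that had passed a test changed direction under the alternatives run, while 17 untested values of the 6 genes took another sign, all in lines against primary NPCs or between passages. Between passages Saa3 went from -0.52 to 0.47 and A2m from 0.14 to -0.15 without the P1 line at either passage, and C3 went from -0.04 to 0.31. Among values for single genes 1879 stayed on their side of the threshold or within 1 SD, 56 gained and 136 lost a call and 16 without a test moved. Depth limits Saa3 most, where an RPKM of 1 is by estimate as few as 3.56 reads and may be fewer.

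The replicate block gave 1874 and 4842 calls for the first 2 comparisons. Same-numbered libraries correlated between -0.109 and 0.374 over 15 pairs, so the numbers were not taken to pair samples.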
